A study of Mus musculus with 6 samples.

Results

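The 9 genes described here encode enzymes that build and take apart gangliosides and sphingomyelin: Ugcg, St3gal5, B4galnt1, St8sia1 and St8sia5 on the side of synthesis, and Hexa, Neu1, Smpd1 and Asah1 on the side of breakdown. They were taken by symbol from the 32285 genes of the count matrix, and each matched 1 gene identifier. The matrix held nuclei of flash-frozen forebrain from 6 mice at postnatal day 16 (3 WT, 3 Npc1-/-), with 1 droplet library (10x Genomics 3' chemistry) made per mouse. The Npc1-/- mice carried the null Npc1nih allele in every cell, and both genotypes were littermates of a mixed BALB/cJ and C57BL6/J background. No source used here ties the 6 libraries to the 6 mice, so WT and Npc1-/- were not compared, and the values below compare cell types and libraries.

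Gangliosides are sphingolipids whose sugar chain carries sialic acid, and they are a large part of the outer membrane of neurons. UGCG adds glucose to ceramide, ST3GAL5 puts the first sialic acid on lactosylceramide to make GM3, ST8SIA1 and ST8SIA5 add further sialic acids that open the b- and c-series, and B4GALNT1 makes GM2, GD2 and their relatives from which the complex brain gangliosides are grown. Breakdown takes place in the lysosome, where NEU1 removes sialic acid, HEXA takes part in the degradation of GM2, SMPD1 (acid sphingomyelinase) cleaves sphingomyelin and ASAH1 (acid ceramidase) cleaves ceramide. Loss of NPC1, a cholesterol carrier of late endosomes and lysosomes, is known to lead to storage of gangliosides and other sphingolipids beside cholesterol.

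The matrix held 75878 barcodes and 497750379 UMIs (unique molecular identifiers, each standing for 1 captured RNA molecule). The libraries held 8217 to 16118 barcodes, 51343653 to 107583300 UMIs and a median of 4469 to 5439 UMIs per barcode. Of the 16-base barcode sequences, 631 occurred in more than 1 library, with 20 to 75 shared by a pair and at most 0.545% of the smaller library. Nuclei were put into classes by marker genes that include none of the 9 enzymes: a nucleus needed UMIs from at least 3 markers of a class and more markers of it than of any other. This placed 47570 nuclei (62.7%) and left 28308 without a class. All class names below stand for nuclei that resemble the named type by these markers (OPC-like, microglia-like and so on), where OPC is an oligodendrocyte progenitor cell. Of 33 further markers that did not enter the gate, 25 were highest in their own class and 6 stood next to the highest. Nrgn in excitatory neurons was at rank 11, at 0.86 times the level of the median class, and highest in fibroblasts. Tubb2b in neuroblasts was at rank 3. The other further markers of these classes, Ptk2b and Sox4, stood next to the highest, at 2.33-fold and 2.02-fold over the median class. No further marker was therefore highest in excitatory neurons or in neuroblasts.

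Of the 17 classes, 16 with at least 100 nuclei were ranked, from 293 dividing nuclei to 8939 excitatory neurons. The oligodendrocyte lineage gave 3482 OPCs, 1340 immature and 1341 mature oligodendrocytes, and mature oligodendrocytes numbered 68 to 436 per library. The level of a gene in a class is its UMIs per 1000000 UMIs of all nuclei of that class (CPM), with an exact Poisson 95% interval. These intervals cover counting error only, not the spread between mice. Values were compared across classes within a gene and never between genes. CPM is a share of a class's UMIs. Among ranked classes, median UMIs per nucleus ran from 2639 in microglia to 9316 in excitatory neurons. The order of classes per nucleus therefore differed from that in CPM for some genes.

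RNA that leaks from broken cells enters every droplet, so a gene could show a level in nuclei that do not make it. Slc17a7, the vesicular glutamate transporter of cortical excitatory neurons, was at 199.9 CPM in excitatory neurons and still at 26.0% to 44.6% of that level in each of the other 15 ranked classes. Snap25, a synaptic gene, was at 901 CPM in excitatory neurons, 603 in microglia and 321 in mature oligodendrocytes. Each class level below therefore included RNA from other cells, and its part was not tested unless a value is given.

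Across the 16 classes the 9 genes differed in how unevenly they were spread. In the heat map of levels, St8sia5 stood out in excitatory neurons, Hexa and Asah1 in microglia, St8sia1 in 4 unrelated classes, and Ugcg hardly varied. The highest class was at least 2-fold over the median class for 4 genes, namely St8sia5 (3.25-fold), Hexa (2.42-fold), St8sia1 (2.14-fold) and St3gal5 (2.07-fold). Among 12996 genes with at least 2000 UMIs, 45.4% met the same criterion, so this share of the 9 was near the background. Of the 15 steps between neighbouring classes in each gene's order, the ranges of the 6 libraries overlapped in 13 steps for St8sia5, in 14 for St3gal5 and Hexa, and in all 15 for the other 6 genes.

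**Figure D1:**
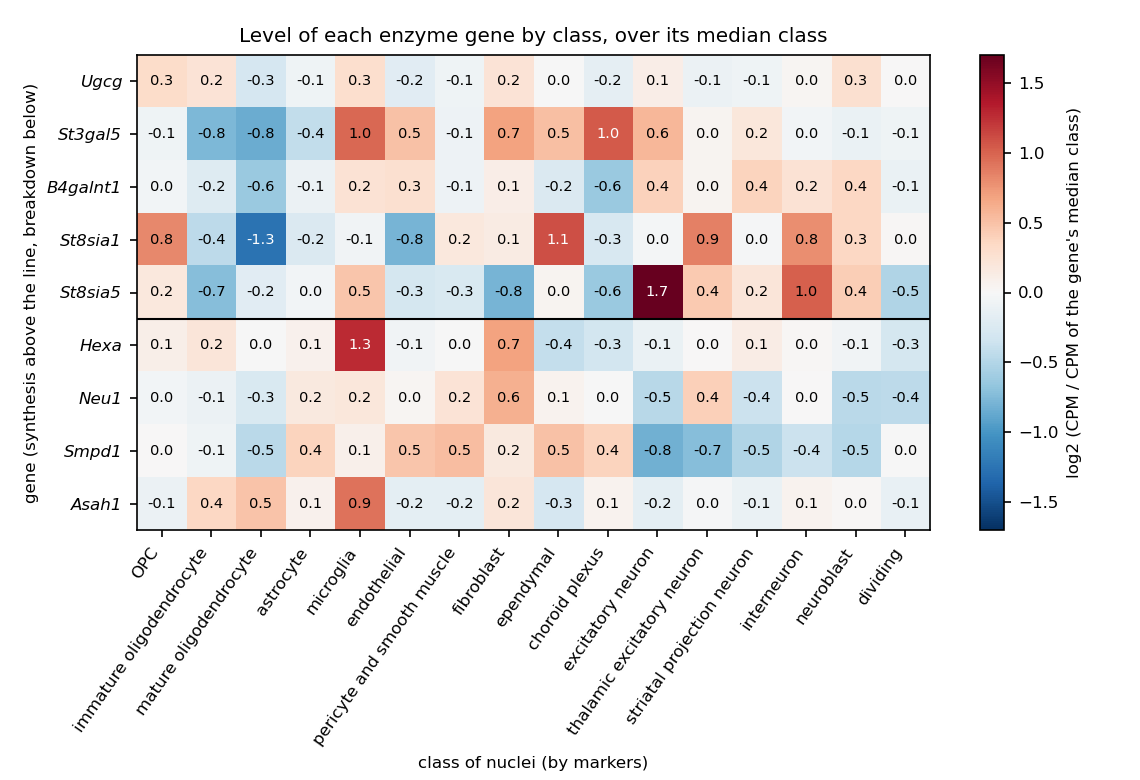
Each cell gives the log2 ratio of a gene's CPM in 1 class (columns) to its CPM in the gene's median class (rows are the 9 genes, with synthesis above the line and breakdown below it). The darkest cell is St8sia5 in excitatory neurons (1.70), and the palest row is Ugcg, whose cells run from -0.29 to 0.32.

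Ugcg, which makes the glucosylceramide that most gangliosides start from, was almost level across the forebrain as a share of UMIs. It lies at chr4:59189257-59222833 on the plus strand (GRCm38, ENSMUSG00000028381). OPCs were highest at 37.1 CPM (34.3 to 40.1), with 32.4, 35.9 and 44.3 as the lowest, median and highest library. Microglia (36.5), neuroblasts (35.9), fibroblasts (35.1) and immature oligodendrocytes (35.0) followed without a step larger than counting error. Mature oligodendrocytes were lowest at 24.5 CPM (21.3 to 28.0), and their libraries (20.6, 26.4 and 29.4) lay below every OPC library. The highest class exceeded the lowest by 1.52-fold, the smallest ratio of the 9 genes, and which class was highest moved with 8 of the 14 processing alternatives. Per 100 nuclei, Ugcg ran from 12.8 UMIs in endothelial cells to 33.8 in excitatory neurons, with OPCs at 18.8.

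St3gal5, whose product GM3 is the entry to the ganglio-series, varied more. It lies at chr6:72097592-72154571 on the plus strand (ENSMUSG00000056091). Choroid plexus was at 150.7 CPM (133.6 to 169.4) and microglia at 143.9 (136.8 to 151.2), which did not differ beyond counting error. Their library values ran over 100.5, 159.3 and 179.8 in choroid plexus and 118.0, 146.9 and 163.4 in microglia. Below them came fibroblasts (117.6), excitatory neurons (107.4), ependymal cells (103.9) and endothelial cells (103.0), with no step past counting error between neighbours among them.

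Striatal projection neurons came next at 83.3 CPM (81.0 to 85.7), a step past counting error. Their libraries (72.6 to 91.1) lay below all endothelial libraries (94.6 to 116.4) but overlapped in part with the ependymal (73.4 to 135.0) and fibroblast libraries (86.5 to 158.9). Interneurons stood at 70.6 and OPCs at 69.4. The foot of the order was held by astrocytes at 54.5 (51.8 to 57.3), immature oligodendrocytes at 43.0 (38.1 to 48.3) and mature oligodendrocytes at 40.6 (36.5 to 45.0). The mature oligodendrocyte libraries, at 31.0, 36.1 and 50.5, fell below all OPC libraries, at 55.1, 67.5 and 87.5.

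B4galnt1, the GM2/GD2 synthase, was sparse, and its highest class exceeded the lowest by 2.04-fold. It lies at chr10:127165225-127172330 on the plus strand (ENSMUSG00000006731), where its exons overlap those of Slc26a10 on the other strand. Excitatory neurons (14.3 CPM, 13.5 to 15.0) and striatal projection neurons (14.1, 13.1 to 15.1) led, followed by neuroblasts (13.9), endothelial cells (13.1), interneurons (12.9) and microglia (12.9). Mature oligodendrocytes (7.03 CPM, with libraries at 2.21, 6.07 and 9.49) and choroid plexus (6.97 CPM) were lowest. Excitatory neurons carried 15.0 B4galnt1 UMIs per 100 nuclei, and at this depth no step between neighbouring classes was larger than counting error.

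St8sia1, the GD3 synthase, had high levels in 4 classes of different lineage. It lies at chr6:142821545-142964452 on the minus strand (ENSMUSG00000030283). Ependymal cells were at 65.5 CPM (56.3 to 75.8), thalamic excitatory neurons at 55.5 (51.4 to 59.9), OPCs at 54.0 (50.6 to 57.5) and interneurons at 53.0 (51.3 to 54.9). The libraries gave 56.0, 65.3 and 81.0 in ependymal cells, 41.5, 58.1 and 63.1 in thalamic neurons, 47.3, 54.3 and 60.9 in OPCs, and 50.0, 53.1 and 62.4 in interneurons. These 4 ranges overlapped one another, and a drop past counting error followed to neuroblasts at 38.9.

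Excitatory neurons (30.0 CPM), striatal projection neurons (30.1) and microglia (29.3) held the middle of the St8sia1 order. Immature oligodendrocytes (22.4, 18.9 to 26.3), endothelial cells (17.7, 15.7 to 19.7) and mature oligodendrocytes (12.8, 10.6 to 15.4) were lowest, and both steps between them were larger than counting error. Within interneurons, nuclei with medial markers (Lhx6, Sst, Nxph1) were at 61.2 CPM (57.9 to 64.5) and those with caudal markers (Adarb2, Vip, Prox1) at 40.5 (36.5 to 44.7). The library ranges of these subclasses, 56.0 to 81.5 and 36.7 to 46.9, did not overlap.

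Within excitatory neurons, St8sia1 was at 34.3 CPM in deep layer nuclei and 25.7 in upper layer nuclei. Their library ranges, 29.4 to 43.3 and 23.1 to 29.2, did not overlap either.

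St8sia5, a sialyltransferase that acts on complex gangliosides such as GD1a, GT1b and GM1b, had the most uneven distribution of the 9 genes. It is on chromosome 18 (ENSMUSG00000025425). Excitatory neurons stood first at 94.8 CPM (92.8 to 96.8) and were the highest class in 6 of 6 libraries, at 75.3 in the lowest, 96.1 in the median and 107.8 in the highest library. Interneurons followed at 58.9 (57.0 to 60.8), with libraries at 49.3, 60.3 and 65.6. Both steps, from excitatory neurons to interneurons and from interneurons to the next class, separated all library values. The second did so narrowly, at 49.32 in the lowest interneuron library and 49.30 in the highest microglia library. Neuroblasts, ranked below microglia, reached 51.3 in library 4 and so overlapped the interneuron range.

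Microglia (40.2 CPM), thalamic excitatory neurons (39.7) and neuroblasts (39.1) did not differ beyond counting error, and the other classes ran down to fibroblasts at 16.8 (10.7 to 25.2). Among excitatory neurons, deep layer nuclei were at 111.2 (107.2 to 115.2) and upper layer nuclei at 82.6 (79.9 to 85.4), a log2 ratio of 0.43 (0.36 to 0.50). Deep layer nuclei were higher within each of the 6 libraries, while the ranges over libraries (90.9 to 127.1 and 60.9 to 94.9) overlapped. Medial and caudal interneurons were at 61.0 and 64.8 CPM.

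The St8sia5 level in other classes was set against Slc17a7, which excitatory neurons make in quantity. Excitatory neurons gave 0.474 St8sia5 UMIs per Slc17a7 UMI (0.462 to 0.486). Pooled over libraries, every glial, vascular and epithelial class, and dividing nuclei, lay at or below that ratio, from fibroblasts at 0.235 to microglia at 0.460 (0.410 to 0.515) and mature oligodendrocytes at 0.462 (0.392 to 0.542). Microglia and mature oligodendrocytes were above the excitatory ratio of the same library in 3 of 6 libraries, and the intervals of both held the excitatory value. How much of the St8sia5 level in these classes was leaked RNA was not tested, and Slc17a7 is also 1 of the markers that define the excitatory class.

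Interneurons gave 0.974 (0.931 to 1.02), above excitatory neurons in 6 of 6 libraries, and thalamic excitatory neurons 0.726 (0.644 to 0.818), also in 6 of 6. Striatal projection neurons gave 0.576 (0.545 to 0.608), above excitatory neurons in 4 of 6 libraries, and neuroblasts 0.603 (0.506 to 0.717), in 3 of 6. Medial and caudal interneurons were alike at 0.981 and 1.01. Each of the other members was also higher per Slc17a7 UMI in interneurons and in thalamic excitatory neurons than in excitatory neurons. In interneurons Ugcg was at 0.506 against 0.161 and Hexa at 0.483 against 0.132. Slc17a7 helped to choose the excitatory nuclei, so a higher ratio in another class cannot be read as particular to St8sia5.

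**Figure D2:**
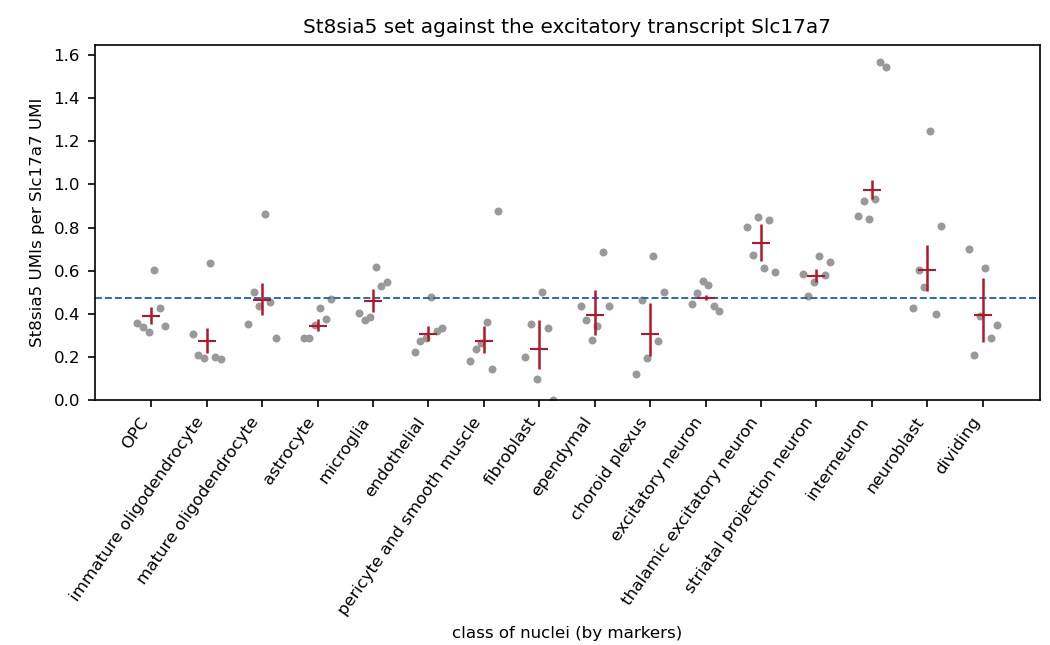
UMIs of St8sia5 per UMI of Slc17a7 (vertical axis) in each of the 16 classes (horizontal axis). Red marks are pooled values with exact 95% counting intervals, grey points the 6 libraries, and the dashed line the pooled excitatory value of 0.474. Interneurons (0.974) and thalamic excitatory neurons (0.726) sit above the line in all libraries, whereas pooled glial and vascular values lie at or below it. Slc17a7 is a marker of the excitatory class, and the other members were also higher per Slc17a7 UMI in interneurons and thalamic neurons.

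Hexa, the alpha subunit of a lysosomal hexosaminidase, was the clearest microglial gene of the 9. It lies at chr9:59539540-59565109 on the plus strand (ENSMUSG00000025232). Microglia were at 69.4 CPM (64.6 to 74.5) with libraries at 58.0, 66.2 and 94.1, and were highest in 6 of 6 libraries. Fibroblasts followed at 46.0 (35.4 to 58.9) without overlap of library values, and the other 14 ranked classes lay between 21.6 CPM in ependymal cells and 33.0 in immature oligodendrocytes. Excitatory neurons were at 26.4, with 22.9, 26.6 and 30.1 across libraries. The 69 nuclei with border macrophage markers, too few to be ranked, carried 17 Hexa UMIs, or 95.0 CPM (55.3 to 152.0).

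Asah1, acid ceramidase, shared this leading class. It lies at chr8:41340197-41374773 on the minus strand (ENSMUSG00000031591). Microglia were at 71.3 CPM (66.4 to 76.5), with libraries at 62.0, 67.4 and 93.6, and were again highest in 6 of 6 libraries. Mature (52.4, 47.7 to 57.4) and immature oligodendrocytes (47.9, 42.7 to 53.5) followed, the former with libraries at 46.7, 50.4 and 63.9. The other classes lay between 30.7 in ependymal cells and 43.1 in fibroblasts. Border macrophage nuclei carried 21 UMIs, or 117.3 CPM (72.6 to 179.3). Per 100 nuclei, thalamic excitatory neurons were highest for Asah1 at 36.1 UMIs, and microglia were at 31.1.

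Neu1, the lysosomal sialidase, was low throughout. It lies at chr17:34931253-34935953 on the plus strand (ENSMUSG00000007038). Fibroblasts (19.7 CPM, 13 to 28.7) and thalamic excitatory neurons (17.1, 14.9 to 19.6) led, and pericytes and smooth muscle cells (15.1), microglia (14.8) and astrocytes (14.5) followed. Cortical and hippocampal excitatory neurons were lowest in CPM at 9.29 (8.68 to 9.93), with libraries at 7.48, 9.84 and 11.3. Per 100 nuclei they carried 9.76 Neu1 UMIs. By that measure immature oligodendrocytes were lowest at 5.90 and thalamic excitatory neurons highest at 16.8. No neighbouring pair of classes differed beyond counting error, although the thalamic and the cortical excitatory intervals were well apart and so were their library ranges (12.8 to 19.6 in thalamic neurons).

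As a share of UMIs, Smpd1, acid sphingomyelinase, was lowest in neurons. It lies at chr7:105554360-105558389 on the plus strand (ENSMUSG00000037049). Pericytes and smooth muscle cells (17.9 CPM), ependymal cells (17.6), endothelial cells (17.2), astrocytes (16.1) and choroid plexus (16.1) were highest and did not differ beyond counting error. The lowest 6 classes were, from the foot upward, excitatory neurons (7.02, 6.49 to 7.58), thalamic excitatory neurons (7.53), striatal projection neurons (8.70), neuroblasts (8.89), mature oligodendrocytes (9.07) and interneurons (9.60). Per 100 nuclei, excitatory and thalamic excitatory neurons each carried 7.37 Smpd1 UMIs. By that measure fibroblasts were lowest at 5.56 and choroid plexus highest at 9.43. Over all nuclei the 6 libraries gave 10.8, 12.8, 12.3, 10.2, 7.23 and 6.58 CPM of Smpd1, a wider relative spread than for the other 8 genes, with libraries 5 and 6 lowest.

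**Figure D3:**
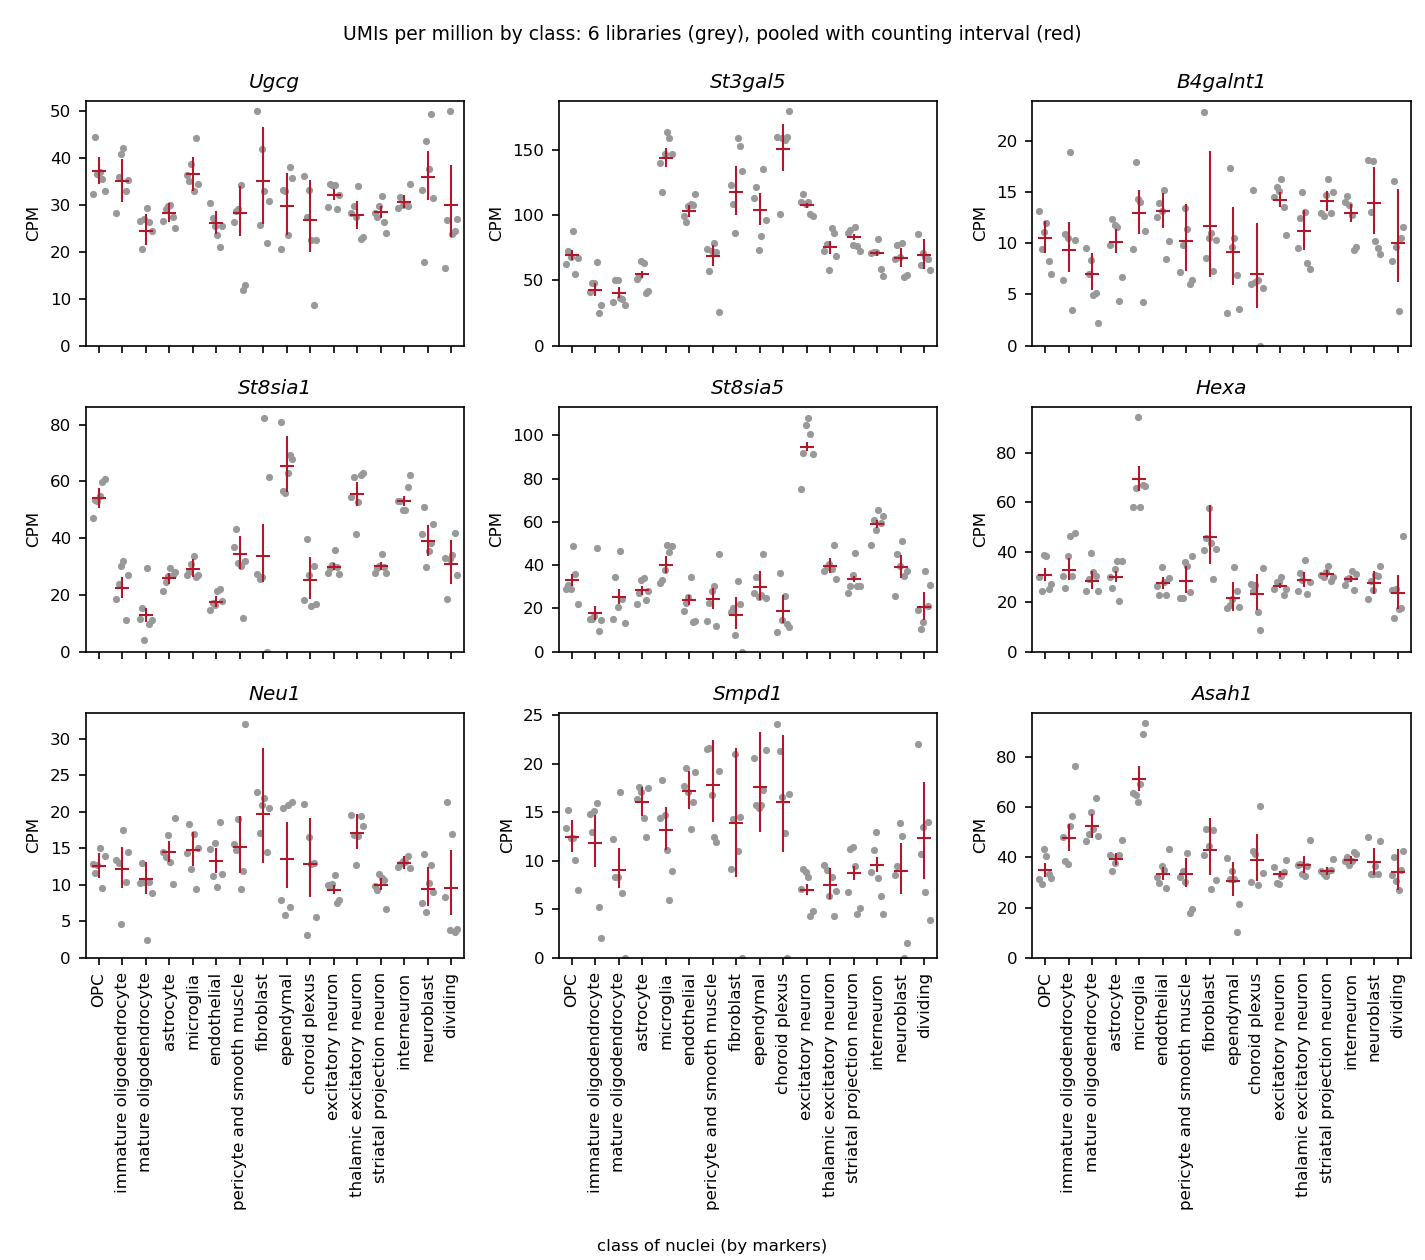
CPM of each of the 9 genes (1 panel per gene, linear axis from 0) in the 16 classes. Grey points are the 6 libraries in order of their suffix and red marks the pooled value with its exact 95% Poisson interval. Excitatory neurons stand alone for St8sia5 (94.8), microglia lead for Hexa (69.4) and Asah1 (71.3), and the small classes show the widest scatter of libraries.

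The lysosomal genes Hexa, Neu1 and Smpd1 had higher CPM in microglia than in excitatory neurons. Their promoters are shown so that the letters can be read beside those levels. For Neu1 and Smpd1 the library ranges of these 2 classes overlapped. With the median ratio of all genes set to 0, their log2 ratios were 0.30 and 0.54, short of 1.5-fold. Per 100 nuclei both were lower in microglia (6.46 against 9.76 UMIs for Neu1, 5.74 against 7.37 for Smpd1). Promoter windows of RefSeq (GRCm38.p6) were matched for 6 of the 9 genes, and only the 250 bases before the transcription start are printed. They are written 5′ to 3′ on the gene's strand, with capitals at each GC box (GGGCGG on either strand), a motif bound by SP1 and its relatives. The windows are chr9:59539290-59539539 for Hexa, chr17:34931003-34931252 for Neu1 and chr7:105554110-105554359 for Smpd1, all on the plus strand.
Hexa: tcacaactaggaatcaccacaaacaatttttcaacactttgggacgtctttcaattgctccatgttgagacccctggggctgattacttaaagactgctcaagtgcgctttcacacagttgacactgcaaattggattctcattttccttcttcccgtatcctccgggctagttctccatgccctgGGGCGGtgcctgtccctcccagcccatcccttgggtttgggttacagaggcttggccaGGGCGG
Neu1: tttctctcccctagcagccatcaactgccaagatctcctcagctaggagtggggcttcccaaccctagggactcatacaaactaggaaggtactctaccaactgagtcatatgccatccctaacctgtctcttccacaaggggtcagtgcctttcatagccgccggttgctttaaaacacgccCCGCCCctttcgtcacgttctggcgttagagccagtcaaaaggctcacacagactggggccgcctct
Smpd1: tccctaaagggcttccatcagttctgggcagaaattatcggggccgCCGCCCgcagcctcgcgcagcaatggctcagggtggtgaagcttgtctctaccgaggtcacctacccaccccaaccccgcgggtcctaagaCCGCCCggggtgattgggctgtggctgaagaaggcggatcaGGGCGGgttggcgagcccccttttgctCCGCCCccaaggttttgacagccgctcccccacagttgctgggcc

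Hexa held 2 GC boxes, Neu1 1 and Smpd1 4, and the windows of Ugcg, St3gal5 and St8sia1 held at least 1 each, against 32.7% of all 32851 RefSeq promoter windows of the same length. GC content was 51.6% in Hexa, 54.4% in Neu1 and 64.8% in Smpd1, and 80.4% in Ugcg, 71.6% in St3gal5 and 63.6% in St8sia1, where the median window had 52.4%. The windows of Ugcg and St3gal5, placed by the RefSeq start, overlap exons of the same gene in the GENCODE annotation. CACGTG, the core of the element that TFEB binds at lysosomal genes, was in none of the 6 matched windows and in 6.02% of all. GAGGAA, a core of sites for the myeloid factor PU.1, was on either strand in the Ugcg window alone and in 23.3% of all. A match describes letters only, and its absence says only that these letters are not in this window.

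Next, classes were compared in pairs on the log2 ratio of their CPM. A gene with at least 500 UMIs over both classes was called where the pooled ratio was at least 1.5-fold and all 6 libraries had its direction. Both classes of a pair come from the same 6 libraries, so the pairs were also tested within libraries, with edgeR's quasi-likelihood test on the class sums, library as a block and Benjamini-Hochberg adjustment over all tested genes. This test was added after the data had been seen. All 16 calls of members passed it at an adjusted p of 0.05, with 0.0022 as the largest value. By edgeR's own ratios, 15 of these calls were also at least 1.5-fold, Ugcg in mature oligodendrocytes over OPCs fell just short (log2 ratio -0.58), and Asah1 in the same pair was called in addition (0.65). The threshold alone was a weak filter, since it was passed by 46.4% to 83.1% of all tested genes in the 5 pairs other than D1 and D2. A list of 46 other genes of sphingolipid metabolism was read the same way. Since RNA content differs between classes, the median ratio of all tested genes is given for each pair.

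The series from OPC to oligodendrocyte was compared because myelin-forming cells are the study's main subject. In mature oligodendrocytes against OPCs, 3 of 6 genes tested were lower and 0 higher, where 22.5% of all tested genes were lower and 12.7% higher. St8sia1 fell by 2.07 on the log2 scale (interval -2.37 to -1.79), St3gal5 by 0.77 (-0.95 to -0.60) and Ugcg by 0.60 (-0.83 to -0.38), where the median tested gene was at -0.17. The adjusted p values were 4.40e-08, 2.52e-05 and 0.0018 in edgeR's paired test, whose ratio for Ugcg was just short of 1.5-fold. For each of these 3 genes the libraries of both classes did not overlap. By library the St8sia1 ratio ran from -3.36 to -0.85, wider than its counting interval. Libraries 3, 4 and 6 held 2, 12 and 5 St8sia1 UMIs in mature oligodendrocytes. The Ugcg call was lost under 6 of 14 alternatives, among them leaving out library 2 (-0.40) and setting the median gene to 0 (-0.43). St3gal5 was lost with a wider margin between classes (-0.86) and St8sia1 under a purer gate (-2.86), in each case because not all libraries kept the direction.

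Neuronal genes found in these glial nuclei moved with the Ugcg and St3gal5 values. From OPCs to mature oligodendrocytes Slc17a7 went from 42.3% to 27.5% of its excitatory level (log2 ratio -0.62, -0.77 to -0.47), and Snap25 (-0.90) and Syt1 (-0.70), both of the synaptic vesicle release machinery, were lower in all 6 libraries too. Per Slc17a7 UMI, Ugcg was at 0.439 (0.400 to 0.481) in OPCs and 0.445 (0.378 to 0.524) in mature oligodendrocytes, and was higher in the latter in 5 of 6 libraries. St3gal5 was at 0.820 (0.759 to 0.885) and 0.738 (0.642 to 0.848), with 3 libraries in each direction. For St8sia1 the same ratio was 0.638 (0.587 to 0.692) against 0.233 (0.188 to 0.286), lower in 6 of 6 libraries. Ugcg was at 37.1 CPM in OPCs and 32.1 in excitatory neurons, and St3gal5 at 69.4 and 107.4. The part of leaked RNA in the falls of Ugcg and St3gal5 was not tested.

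Asah1 moved the other way in all 6 libraries, from 34.9 CPM (libraries 29.5 to 43.3) in OPCs to 52.4 (46.7 to 63.9), but its pooled ratio was just short of 1.5-fold (log2 ratio 0.58, 0.41 to 0.76). In edgeR's paired test its log2 ratio was 0.65 with an adjusted p of 4.89e-05, past 1.5-fold. It was called under 6 of 14 alternatives (0.61 to 0.75), including those without library 1, 3 or 4. Hexa was at 30.8 in OPCs and 28.6 in mature oligodendrocytes, with 3 libraries in each direction. Per Slc17a7 UMI, Asah1 was at 0.953 in mature oligodendrocytes against 0.413 in OPCs, and Hexa at 0.520 against 0.364. Both were higher in 6 of 6 libraries by this ratio, and Slc17a7 itself was lower in mature oligodendrocytes (log2 ratio -0.62). St8sia5, at 33.0 and 25.4, was called as lower only without library 2 (-0.71) and in nuclei with 2000 to 15000 UMIs (-0.71). B4galnt1, Neu1 and Smpd1 had too few UMIs for a call, at log2 ratios of -0.58, -0.22 and -0.46. With the median gene set to 0, the higher share of all called genes went from 36.0% to 47.0%.

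Of the other sphingolipid genes, 7 of 30 tested were higher in mature oligodendrocytes than in OPCs and 11 lower. These shares were 23.3% and 36.7%, beside 12.7% and 22.5% of all tested genes. Galactolipid genes of myelin were among the highest ratios. Fa2h, which hydroxylates the fatty acids of myelin lipids, was at 411 against 42.8 CPM, and Ugt8a, the ceramide galactosyltransferase, at 615 against 84.6. St6galnac3, a sialyltransferase of the alpha-series, was at 1563 against 266. The largest falls were in Neu4, a sialidase (7.26 against 82.9), Cers4, a ceramide synthase (27.3 against 78.4), and B4galt6, a lactosylceramide synthase that feeds St3gal5 (21.9 against 59.9).

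In immature oligodendrocytes against OPCs, 3 of 6 genes tested were lower and 0 higher, against 14.3% and 9.04% of all tested genes. St8sia1 fell by 1.27 (-1.53 to -1.02), St8sia5 by 0.91 (-1.21 to -0.61) and St3gal5 by 0.69 (-0.88 to -0.50), with the median gene at -0.01. St8sia5 per Slc17a7 UMI was below the excitatory ratio in both classes, at 0.271 and 0.390, and Slc17a7 itself was at 32.5% and 42.3% of its excitatory level. In library 4 both classes were above the excitatory ratio (0.635 and 0.601 against 0.531). The part of leaked RNA in this difference was not tested, and 4 of 14 alternatives lost the call. Per Slc17a7 UMI, St3gal5 was at 0.660 (0.566 to 0.770) in immature oligodendrocytes against 0.820 (0.759 to 0.885) in OPCs, lower in 5 of 6 libraries, and St8sia1 at 0.344 against 0.638, lower in 6 of 6. The St3gal5 call was lost under a stricter gate (-0.52).

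St8sia1 therefore stepped down along the series, from 54.0 CPM in OPCs to 22.4 in immature and 12.8 in mature oligodendrocytes. St3gal5 was at 69.4, 43.0 and 40.6 CPM in the same order. Asah1 in immature oligodendrocytes over OPCs had a log2 ratio of 0.45 (0.25 to 0.65, edgeR adjusted p = 0.011), higher in 5 of 6 libraries and short of 1.5-fold. Hexa (0.10) and Ugcg (-0.09) were not called either. Per Slc17a7 UMI, Asah1 was at 0.736 in immature oligodendrocytes against 0.413 in OPCs, higher in 5 of 6 libraries. Hexa was at 0.507 against 0.364 (6 of 6) and Ugcg at 0.538 against 0.439 (5 of 6). In the wider list, 6 of 28 tested genes were higher in immature oligodendrocytes, led by Fa2h (249 against 42.8 CPM), Ugt8a (329 against 84.6) and the ceramide kinase Cerk (177 against 46.2). Cers4 (38.8 against 78.4) and the sialyltransferase St6galnac5 (88.7 against 150) were the 2 lower genes. Higher and lower genes were 21.4% and 7.14% of the 28, beside 9.04% and 14.3% of all tested genes.

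**Figure D4:**
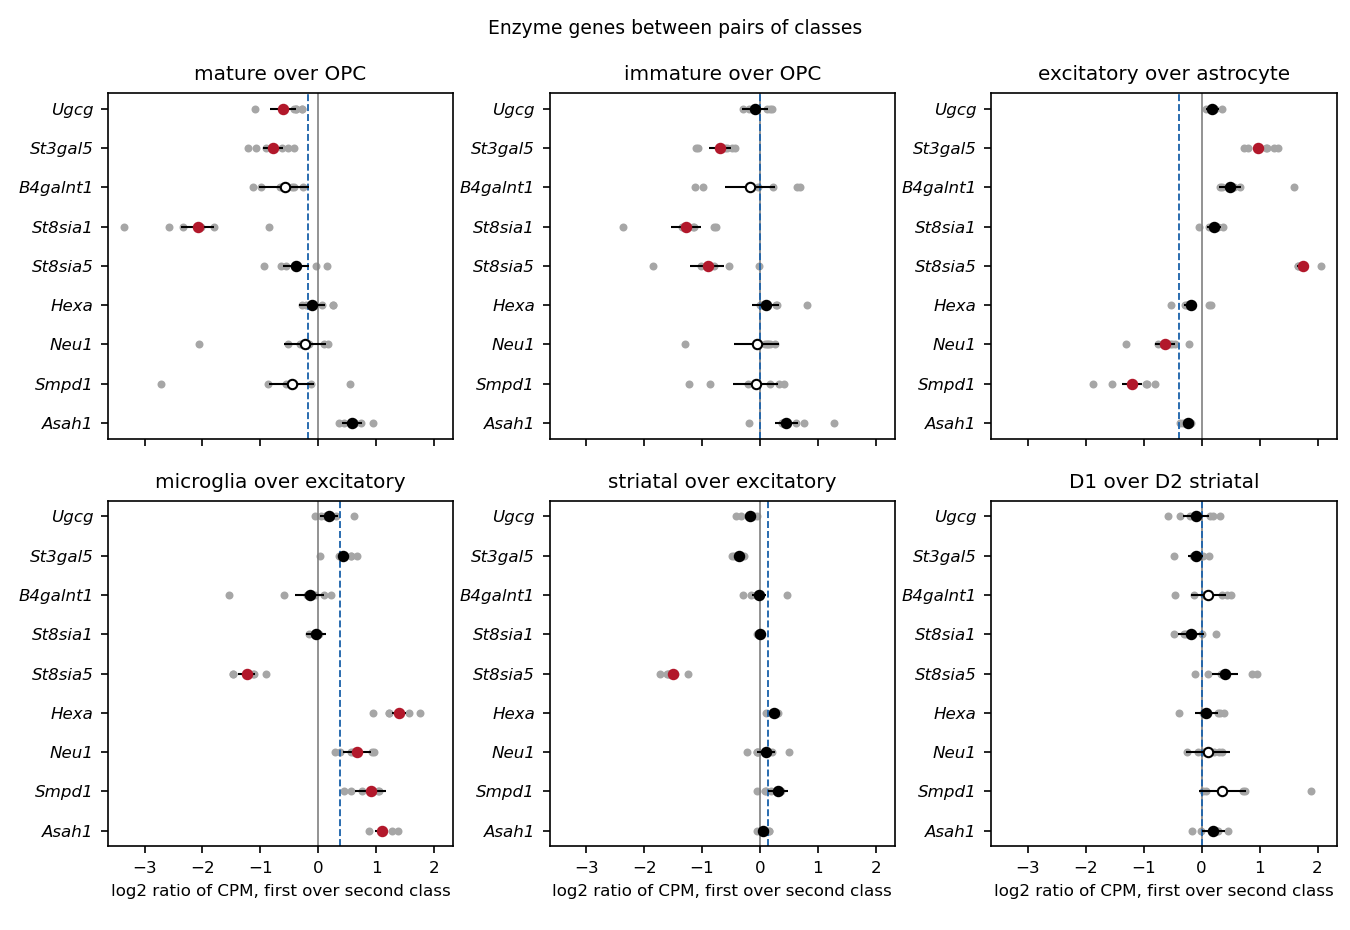
Log2 ratios of CPM (horizontal axis) of the 9 genes in 6 pairs of classes, named in each panel with the numerator first. Large points are pooled ratios with exact 95% counting intervals (red where called, black where tested and not called, white where under 500 UMIs), grey points the 6 libraries, and the dashed line the median of all tested genes. The widest departures are St8sia1 in mature oligodendrocytes (-2.07) and St8sia5 in excitatory neurons over astrocytes (1.75).

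Excitatory neurons were set against astrocytes as the main neuronal and glial classes. Of 9 genes tested, St3gal5 and St8sia5 were higher and Neu1 and Smpd1 lower in neurons. Among all tested genes 14.1% were higher and 38.9% lower, and the median ratio was -0.39. St8sia5 was 94.8 against 28.3 CPM (log2 ratio 1.75, 1.64 to 1.85) and St3gal5 107.4 against 54.5 (0.98, 0.90 to 1.06), both without overlap of libraries.

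On the side of breakdown, Smpd1 was 7.02 against 16.1 CPM (log2 ratio -1.20, -1.37 to -1.02), and no excitatory library (4.26 to 9.11) reached an astrocyte library (12.4 to 17.6). Neu1 was 9.29 against 14.5 (-0.64, -0.81 to -0.47), with overlapping libraries. Per 100 nuclei, excitatory neurons and astrocytes carried 7.37 and 7.59 UMIs of Smpd1, and 9.76 and 6.82 of Neu1. The Neu1 call was lost under 5 of 14 alternatives, including the one without library 6 (-0.56) and the one with the median gene at 0 (-0.25). B4galnt1 (0.49), St8sia1 (0.21), Ugcg (0.18), Hexa (-0.19) and Asah1 (-0.23) stayed short of 1.5-fold, although the 4 of them other than Hexa had 5 or 6 libraries in 1 direction. With the median gene at 0, B4galnt1 (0.88) and St8sia1 (0.61) were called as well. The higher share of all calls was then 48.6% in place of 26.5%.

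Among the other sphingolipid genes 5 of 39 were higher in excitatory neurons and 12 lower. These shares, 12.8% and 30.8%, were near the 14.1% and 38.9% of all tested genes. The ceramide synthases Cers6 (243 against 85.2 CPM) and Cers4 (80.4 against 41.7) and St6galnac3 (251 against 125) led. Lowest were Smpd2, a neutral sphingomyelinase (2.87 against 21.6), Gm2a, the activator protein that presents GM2 to hexosaminidase (5.02 against 23.9), and Fa2h (3.21 against 11.1). Leaked oligodendrocyte RNA moved with Fa2h, since Mbp was at 256 CPM in excitatory neurons and 1417 in astrocytes, and its part in the Fa2h value was not tested.

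In CPM of microglia against excitatory neurons, 4 of 9 genes tested were higher, namely the 4 of the lysosome. Of the others, 1 was lower (St8sia5) and 4 were not called. Of all tested genes 35.4% were higher and 9.22% lower, so the count of higher members was near the background, and the median ratio was 0.37. With the median gene at 0, 2 of the 4 stayed called. Hexa was 69.4 against 26.4 CPM (log2 ratio 1.39, 1.28 to 1.51) and Asah1 71.3 against 33.4 (1.09, 0.98 to 1.21), neither with any overlap of libraries. Per 100 nuclei, Hexa was at 30.3 UMIs in microglia and 27.7 in excitatory neurons. Asah1 was lower in microglia by this measure, at 31.1 against 35.1.

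Smpd1 was 13.2 against 7.02 CPM (0.91, 0.64 to 1.17) and Neu1 14.8 against 9.29 (0.67, 0.42 to 0.92), and the library ranges of both overlapped between classes. Per 100 nuclei both were lower in microglia, Smpd1 at 5.74 against 7.37 UMIs and Neu1 at 6.46 against 9.76. With the median gene set to 0, Smpd1 (0.54) and Neu1 (0.30) were no longer called and Hexa and Asah1 were. The higher share of all called genes then went from 79.3% to 48.7%. Neu1 was also lost under a stricter gate, the median over libraries and a wider margin between classes.

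St3gal5 was 143.9 against 107.4 CPM (0.42, 0.34 to 0.50) in microglia and excitatory neurons, higher in 6 of 6 libraries and near the median gene. Ugcg (0.18), St8sia1 (-0.04) and B4galnt1 (-0.14) lay below it. St8sia5 was 40.2 against 94.8 (-1.24, -1.38 to -1.10) without overlap, and per Slc17a7 UMI it was 0.460 against 0.474, higher in 3 of 6 libraries.

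Of 37 other sphingolipid genes tested, 16 were higher in microglia (43.2%) and 2 lower (5.41%). Of all tested genes 35.4% were higher and 9.22% lower, so the count of higher genes was near the background. Cerk was at 161 against 32.3 CPM, and Fa2h at 20.5 against 3.21 where Mbp was at 705 against 256. St6galnac5 (192 against 327) and St3gal1, which adds sialic acid to GM1 among other acceptors (15.7 against 25.6), were the lower genes.

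In striatal projection neurons against excitatory neurons, 1 of 9 genes was lower and 0 higher, near the 6.82% and 13.1% of all tested genes, and the median ratio was 0.14. The gene was St8sia5, at 33.7 against 94.8 CPM (log2 ratio -1.49, -1.56 to -1.42), with libraries at 27.3, 30.2 and 45.6 in striatal neurons, all below the excitatory libraries. St3gal5 was next at 83.3 against 107.4 (-0.37, -0.42 to -0.32), lower in 6 of 6 libraries. St8sia1 was at 30.1 and 30.0.

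Ratios of other neuronal classes follow as values chosen after they were seen. Thalamic over cortical and hippocampal excitatory neurons had log2 ratios of 0.89 for St8sia1 (0.77 to 1.01), 0.88 for Neu1 (0.66 to 1.10) and -1.25 for St8sia5 (-1.39 to -1.12), each with all 6 libraries in 1 direction. Interneurons over excitatory neurons were at 0.82 for St8sia1 (0.75 to 0.90), -0.69 for St8sia5 (-0.74 to -0.63) and -0.61 for St3gal5 (-0.66 to -0.55), again in all 6 libraries.

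In the wider list 6 of 40 genes were higher in striatal neurons and 1 lower. These shares, 15% and 2.5%, were near the 13.1% and 6.82% of all tested genes. Smpd3, a neutral sphingomyelinase, was at 276 against 110 CPM and St8sia3, a sialyltransferase, at 45.3 against 19.8. Fa2h was at 11.3 against 3.21, where Mbp was at 470 against 256. St3gal1 was the lower gene at 15.1 against 25.6. With the median gene at 0 the higher share of all calls went from 65.8% to 48.8%.

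D1 and D2 striatal neurons, named for their dopamine receptor, showed no called member among 6 tested and no called gene among 25 tested of the wider list. Of all tested genes 0.684% were higher in D1 and 0.698% lower. Log2 ratios of the 6 members ran from -0.18 for St8sia1 (-0.40 to 0.05) to 0.41 for St8sia5 (0.18 to 0.63), where D1 nuclei were at 29.4 CPM and D2 nuclei at 22.1, higher in 5 of 6 libraries. In edgeR's paired test 0 of the 6 passed, and only St8sia5 was under 0.05 before adjustment over all genes. Its adjusted p was 0.066 by edgeR. The intervals of the other 5 tested genes lay within -0.40 and 0.40.

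As a last description, each gene was matched to the genes with the most similar levels over the 16 classes (Pearson r of log2(CPM + 1), among genes with at least 2000 UMIs). The classes share libraries and differ in depth and in leaked RNA, so r is given with no p. St8sia5 was most like Garnl3 (0.95), Gm33228 (0.93) and Grin2a (0.92), the last an NMDA receptor subunit. B4galnt1 was most like Jph4 (0.91), Prkce (0.89) and Olfr1564 (0.88), and St8sia1 like Guf1 (0.91), Vps37d (0.86) and Fhl1 (0.85).

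Hexa was most like Dennd4a (0.86), Cmtm7 (0.85) and Smap2 (0.84), and Asah1 like Edem2 (0.87), the lysosomal protease Lgmn (0.84) and Snx29 (0.84). For St3gal5 these were 2900089D17Rik (0.87), Rec114 (0.87) and Slc17a5, the lysosomal exporter of free sialic acid (0.83). Smpd1 was most like Romo1 (0.98), Tmco1 (0.97) and Zfp703 (0.97), Neu1 like Ndufa10 (0.92), Ttc38 (0.86) and Cbx8 (0.86), and Ugcg like Naa25 (0.80), Gnl2 (0.79) and Telo2 (0.78). Within the set of 9 the closest pair was Hexa and Asah1 at 0.79, followed by B4galnt1 and St8sia5 at 0.59.

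Exons of 4 of the 9 genes overlap exons of a gene on the other strand, and no source used here says whether counting used strand. Over all nuclei, Slc26a10 had 4533 UMIs beside 6419 of B4galnt1, Gm7276 1334 beside 27386 of St8sia5, Tmem202 697 beside 15007 of Hexa and Gm7457 212 beside 17897 of St8sia1. Reads of these pairs could not be told apart if strand was ignored, and B4galnt1 is the gene with the largest such partner.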

How the data were processed

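The labels and the study's methods describe nuclei from 3 WT and 3 Npc1-/- forebrains. The deposited matrix holds UMI counts (whole numbers, not normalized), deposited by the authors as 1 table of all 6 libraries. Its header names Cell Ranger 6.0.0, whereas the submitters' processing notes name Cell Ranger 2.1.1 and mm10, and the methods describe STARsolo. The methods also describe removal of multiplets with DoubletFinder and of nuclei by mitochondrial share. Whether the deposited matrix was made before or after these steps, its annotation release, intron and strand use and any subsampling of reads were not stated in the sources used here. No doublet caller was run here.

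Nuclei with a mitochondrial share of 10% or more (11) were left out. Nuclei were gated on at least 3 markers of a class with a margin of 1 over any other class, and subclasses on 2. The margin was first 2 and was lowered to 1 after seeing the data, because 2 left too few UMIs in several pairs. UMIs were summed per class and library and divided by the class total. Intervals of levels were exact Poisson and those of ratios exact conditional binomial (95%). A count of 0.5 was added to library sums before ratios. All genes with at least 500 UMIs in a pair were tested, and calls were made over the whole table. Class sums were also tested within libraries with edgeR 4.0.16 (R 4.3.3, glmQLFit and glmQLFTest, library as a block, all UMIs as library size), an alternative chosen after seeing the data. Since the libraries are separate mice of both genotypes, its p-values set a mean class difference against its spread over these 6 mice. The model held no term for genotype. The ratio rule and this test were checked on simulated data. Python 3.11.15, numpy 2.4.6, scipy 1.17.1 and pandas 2.3.3 were used.

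Named were the 9 genes, up to 3 called genes of the wider list at each end of each comparison, and the 3 most alike genes of each member. Of these, 1 gene is not reported here. The members, lists and markers were chosen with earlier results of these data known. Gene positions come from GENCODE (GRCm38) and promoters from RefSeq.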

Additional observations from a re-analysis of the deposited data

How the results depend on the processing

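Each value was recomputed under 14 alternatives: a stricter gate, a purer gate (at most 1 marker of any unrelated class), nuclei with 2000 to 15000 UMIs, the median ratio of all genes set to 0, equal weight per nucleus, the median over libraries, a mitochondrial share of at most 1%, each of the 6 libraries left out, and a wider margin between classes (2 markers), which was chosen after seeing the data. A threshold of 2-fold and a paired test were tried as well. No called ratio changed sign. Of the 16 calls, 8 held under all 14 alternatives: St8sia1 in immature oligodendrocytes, St3gal5, St8sia5 and Smpd1 between excitatory neurons and astrocytes, Hexa, Asah1 and St8sia5 between microglia and excitatory neurons, and St8sia5 in striatal neurons.

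The number of genes called went from 3 to 1 in immature oligodendrocytes under the stricter gate, from 3 to 1 in mature oligodendrocytes and from 0 to 1 (St3gal5) in D1 over D2 under the purer gate, and from 5 to 3 in microglia with the median gene set to 0. At 2-fold it was 1 in mature and 1 in immature oligodendrocytes, 2 in excitatory neurons over astrocytes and 3 in microglia. With the median gene set to 0, 18.6% of all tested genes were higher and 19.5% lower in microglia over excitatory neurons. Shares of all genes under the gates, at 2-fold and with 1 library left out are not given here. Those counts were therefore not set against a background. The highest class stayed the same for 3 of the 9 genes under the purer gate and for 5 under the wider margin. The purer gate left 107 of the 3482 OPCs (8 in the library with the fewest), 199 immature and 372 mature oligodendrocytes. It also left 27 D1 nuclei, 24 choroid plexus nuclei and 15 fibroblasts, so its values rest on few nuclei. With 1 library left out, calls numbered 3 to 4 in mature oligodendrocytes, 3 to 4 in excitatory neurons over astrocytes and 3, 5, 1 and 0 in the other comparisons as before, and the highest class stayed for 6 to 9 genes. That class changed under 8 of 14 alternatives for Ugcg and Smpd1, 6 for B4galnt1, 3 for Neu1, 2 for St3gal5 and 1 for St8sia1, and under none for St8sia5, Hexa and Asah1. Without a minimum of UMIs the share of all genes called in D1 over D2 went from 1.38% to 3.22%. Some ratios not called above were called under alternatives: B4galnt1 in excitatory neurons over astrocytes under 3 (0.75 to 1.09, the wider margin among them), St3gal5 in microglia under 2 (0.60 with the wider margin and 0.64 with equal weight per nucleus) and Ugcg in microglia under the purer gate (0.87). The cause of these moves was not tested.

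With library as a replicate block in edgeR, a paired test chosen after seeing the data, an adjusted p of 0.05 and an edgeR ratio of 1.5-fold gave 16 calls, namely 3 in mature and 3 in immature oligodendrocytes, 4, 5, 1 and 0 in the other comparisons. Of these, 15 were shared with the rule of size and direction, while in mature oligodendrocytes over OPCs Ugcg (-0.58) was lost and Asah1 (0.65) gained. Of all tested genes the same criterion called 13.2% higher and 24.0% lower in mature and 9.40% and 15.3% in immature oligodendrocytes. The shares were 14.6% and 39.0% in excitatory neurons over astrocytes and 36.2% and 10.3% in microglia. They were 11.8% and 7.15% in striatal neurons and 0.712% and 0.755% in D1 over D2. A further 9 ratios of members passed the adjusted p without reaching 1.5-fold. WT and Npc1-/- were not compared, with or without a block, because the libraries cannot be tied to the numbered mice, so the planned edgeR and DESeq2 tests of genotype were not run. Depth limits B4galnt1, Neu1 and Smpd1 most, which had 5231 to 6419 UMIs in all nuclei.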
